A study of Arabidopsis thaliana with 21 samples.

Results

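Wild-type Arabidopsis thaliana plants that had been deprived of phosphate were given back either a low or a high dose of it, and their transcripts were compared after 8 h. The comparison takes 6 of the 21 arrays of the series, chosen by their sample titles: 3 arrays of plants with 1 mM phosphate and 3 arrays of plants with 30 µM phosphate. All were of the Col-0 accession, and per the labels all had 7 days on a medium with 1 mM phosphate, then 2 days without phosphate, before they were moved to the liquid medium in which they were treated. Each array holds an independent biological sample. The labels name whole plants and no organ. The same ATH1 array type was used for 3 unsupplemented wild-type controls and for 3 wild-type samples with 30 µM arsenate, an analog of phosphate that plants take up through phosphate transporters, and these 6 arrays entered the same model and serve as reference levels. One label goes against this grouping: the description field of the 1 mM samples names the 30 µM dose, although 3 other fields (the title among them) name 1 mM.

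Plants sense their phosphate status through inositol pyrophosphates and SPX proteins. When phosphate is plentiful SPX proteins hold back PHR1, a transcription factor that switches on the starvation programme. That programme includes phosphate transporters, acid phosphatases and enzymes that replace phospholipids by galactolipids and sulfolipids, and many of its transcripts are known to decline within hours of resupply. A comparison of doses asks which transcripts still differ once some phosphate has been restored. In the tables used here ATH1 probe sets, the groups of oligonucleotides that each report a transcript, are not paired with genes. Results are therefore given by probe set identifier, and the members of the starvation programme could not be picked out.

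The arrays of the 1 mM group resembled each other closely, with Pearson's r across 22746 probe sets from 0.9913 to 0.9922. In the 30 µM group replicates 2 and 3 correlated at 0.9952, and replicate 1 stood apart, at 0.984 and 0.9854 with them. Replicate 1 also had the lowest mean r with its group among the control arrays (0.9904) and the arsenate arrays (0.9814). Among the 1 mM arrays it did not (0.9918, against 0.9917 for replicate 3). Between the groups r ran from 0.9616 to 0.9868. The median spread among replicates (SD, n = 3) was 0.142 log2 units with 30 µM and 0.136 with 1 mM. The quartiles of the arrays lay closer together with 1 mM, with a lower quartile of 3.72 to 3.75 and an upper quartile of 6.98 to 7.02, than with 30 µM, where these were 3.62 to 3.68 and 7.08 to 7.10. The number of arrays limits the precision of every value.

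Foreign control transcripts differed between the groups too, which touches every result below. The hybridisation controls are bacterial and phage sequences labelled in advance and added to each array's mixture, and the poly-A controls are Bacillus transcripts. Averaged over 18 hybridisation control probe sets, the level was 9.56, 10.04 and 9.82 on the 30 µM arrays and 10.74, 10.57 and 10.41 on the 1 mM arrays, so the groups did not overlap. Over 27 poly-A control probe sets it was 4.31, 5.32 and 5.05 with 30 µM and 6.30, 6.42 and 5.32 with 1 mM. All 45 of these sets were higher with 1 mM, by a median of 0.87 (hybridisation) and 1.32 (poly-A) log2 units, and 11 passed an adjusted p of 0.05 in a limma fit that kept them. None of 19 Arabidopsis control sets passed in that limma fit, and 3 had an unadjusted p under 0.05, all of them lower with 1 mM. Of the 19, 4 were higher with 1 mM, and their median difference over all 19 was -0.23 log2 units. The signal difference between the 3′ and 5′ actin controls, a sign of RNA integrity, was 1.11, 1.62 and 1.92 on the 30 µM arrays and 1.68, 1.42 and 1.62 on the 1 mM arrays.

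**Figure D1:**
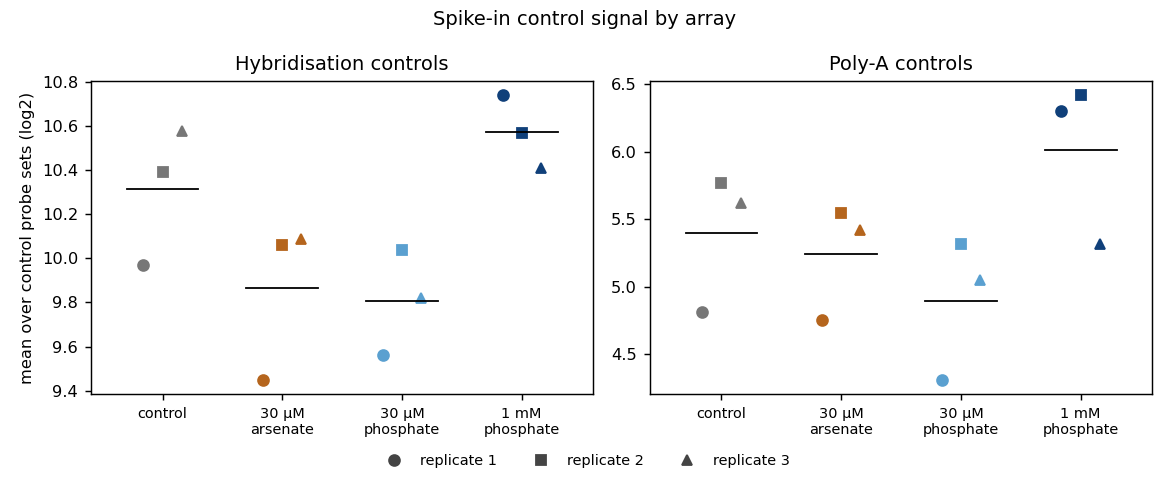
Mean RMA expression (log2) over 18 hybridisation control probe sets (left) and 27 poly-A control probe sets (right) on each array at 8 h, with marker shape for the replicate number and a line for the group mean of 3 arrays. The 1 mM arrays lie above all 30 µM arrays for the hybridisation controls, while for the poly-A controls replicate 3 with 1 mM is level with replicate 2 with 30 µM.

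Transcript levels differed between the doses in both directions, and the largest differences were lower levels with 1 mM. Of 22746 probe sets, 2246 (9.87%) differed between the doses at an adjusted p of 0.05 (limma, Benjamini-Hochberg), 997 higher (4.38%) and 1249 lower (5.49%) with 1 mM. In RNA of whole plants, fewer cells of a type and less RNA per cell cannot be told apart. A rise of at least 1 log2 unit was called for 217 probe sets (0.954%) and a fall of that size for 226 (0.994%). At 2 log2 units or more there were 4 rises (0.0176%) against 32 falls (0.141%). Called rises had a median of 0.73 and reached 3.35, and called falls had a median of -0.66 and reached -6.13. The 1 mM and 30 µM arrays did not overlap for 2239 of the 2246 called probe sets, and for 33.1% of all probe sets (16.5% higher and 16.6% lower).

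These counts depended on single arrays and on the scaling. The 2246 calls became 863, 1885 and 1193 without 30 µM replicates 1, 2 and 3. They became 680, 1407 and 1100 without 1 mM replicates 1, 2 and 3. Without all arrays numbered 1, a setting chosen after seeing the data, there were 1866 calls, 813 higher and 1053 lower. The calls of at least 1 log2 unit became 98 higher and 148 lower without 30 µM replicate 1, and 109 higher and 150 lower without 1 mM replicate 1. Rises made up 44.4% of calls, 54.8% after a further quantile normalization and 64.9% after centring each array on its median, which moved the median difference of all probe sets from 0.017 to 0.117. Without 30 µM replicate 1, the array that stood apart, 142 of the 217 rises and 173 of the 226 falls of at least 1 log2 unit were still called. All of them kept their direction, but leaving out an array cannot reverse a difference between groups that do not overlap. Without all arrays numbered 1, 208 of these rises and 214 of these falls were still called.

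**Figure D2:**
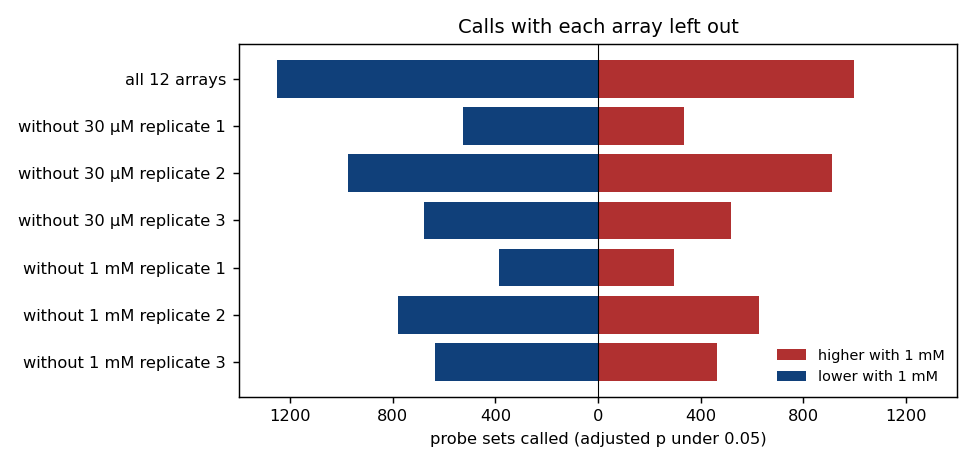
Number of probe sets called at an adjusted p under 0.05 as higher (right) or lower (left) with 1 mM than with 30 µM phosphate, with all 12 arrays in the fit and with each of the 6 compared arrays left out in turn. Calls fell from 2246 to between 680 and 1885.

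Each array could be set against calls made without it, although the mean of the other group that it was compared with had entered those calls. When 30 µM replicate 1 was left out, its own value lay on the called side of the 1 mM mean for 845 of the 863 called probe sets (97.9%), against 77.2% of all probe sets. For the other 5 arrays this share was 98.6% to 99.6% of called probe sets and 76.5% to 79.5% of all. Called probe sets have larger differences than most, so a higher share among them was likely in advance. These shares cannot tell dose from a shift common to all arrays of a group. The distance of 30 µM replicate 1 from the 1 mM mean was 0.97 at the median over the probe sets called without it, larger than their median called difference of 0.79.

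The control signal described above was also entered into the model. With the mean hybridisation control level of each array as a covariate, a setting chosen after seeing the data, 42 rises and 196 falls were called, and with the poly-A control level 27 and 103. The 217 rises of at least 1 log2 unit had a median of 1.18 as designed, 0.57 with the hybridisation covariate and 0.71 with the poly-A covariate. The 226 falls of that size had medians of -1.32, -1.24 and -1.19, and the 32 falls of at least 2 log2 units had medians of -2.92, -2.76 and -2.61. With the covariates 14 and 19 of the 217 rises were still called, and 89 and 78 of the 226 falls. Of the 32 largest falls, 25 and 26 were still called. The covariates follow the groups in part and widened the median standard error of all probe sets from 0.14 to 0.19 and 0.17. Control signal and dose cannot be told apart in these arrays, and the difference between rises and falls under the covariates was not tested. The labels name no processing batch. If the 1 mM arrays were handled apart from the others, that handling could not be told apart from dose for any of the calls.

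**Figure D3:**
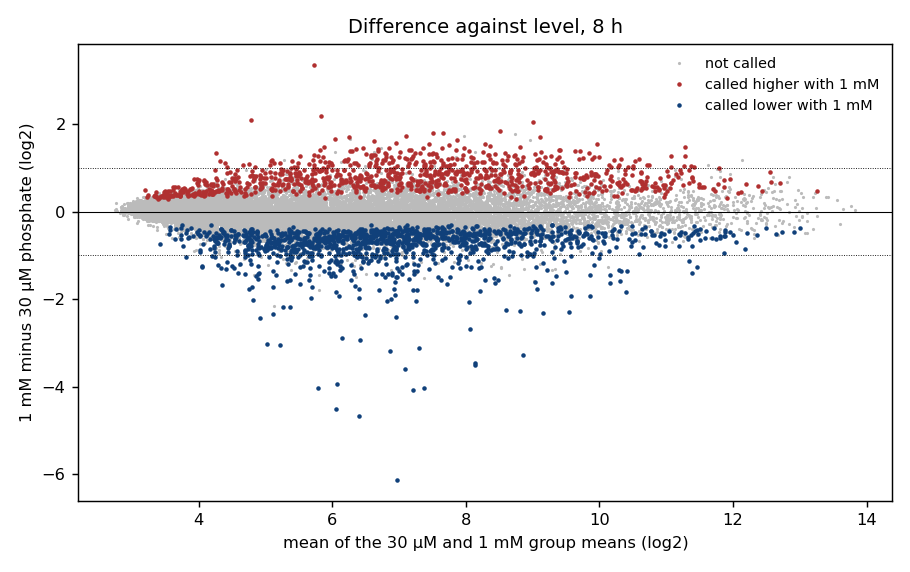
Difference between 1 mM and 30 µM phosphate (log2, vertical axis) against the mean of both group means (log2, horizontal axis) for 22746 probe sets, each a point, with called rises in red and called falls in blue and dotted lines at 1 log2 unit in either direction. Falls reach -6.13, while the highest rise is 3.35.

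Among all probe sets the largest fall was that of 262369_at. Its level with 30 µM phosphate was 10.94, 9.50 and 9.65 (log2), and with 1 mM it was 3.77, 3.84 and 4.09. On the control arrays it was 11.85, 11.53 and 11.79. The groups did not overlap, and the 1 mM values lay near the floor of the scale: the mean moved from above 96.0% of probe sets to above 29.8% of them. The difference between the doses was -6.13 ± 0.31 (SE, adjusted p = 2.82e-06, limma). It was -5.67 to -6.39 with each compared array left out and -5.85 and -5.67 with the hybridisation and poly-A covariates, and it passed under each of these. Because RMA compresses differences near the floor, no fold is given.

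The probe set 259399_at had the next largest fall. It read 9.55, 8.11 and 8.53 with 30 µM and 4.23, 3.71 and 4.28 with 1 mM, against 10.60, 10.22 and 10.58 on the control arrays. Its difference between the doses was -4.66 ± 0.33 (adjusted p = 2.74e-05, limma), and it was -4.56 and -4.24 with the hybridisation and poly-A covariates (adjusted p = 0.0018 and 0.00155). For this probe set and for 262369_at, 30 µM replicate 1 was the highest of its group and stood nearest to the control arrays.

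The largest rise was that of 262373_at, which read 3.90, 4.27 and 3.98 with 30 µM and 7.58, 7.40 and 7.23 with 1 mM. On the control arrays it read 4.44, 5.19 and 5.75, and with arsenate 4.56, 5.67 and 6.54. The 1 mM arrays were above all other arrays of the table. The arrays with 30 µM were below all control arrays, but the difference from control, -1.08 ± 0.42, did not pass (adjusted p = 0.22, limma). The difference between the doses was 3.35 ± 0.42 (adjusted p = 0.00181, limma). It was 1.88 with the hybridisation covariate (adjusted p = 0.0178) and 2.53 with the poly-A covariate (adjusted p = 0.0385).

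The next largest rise, of 266141_at, was less firm. Its level was 4.00, 5.18 and 5.07 with 30 µM and 7.59, 6.56 and 6.63 with 1 mM, against 5.08, 5.61 and 5.59 on the control arrays. The difference of 2.18 ± 0.34 passed (adjusted p = 0.00459, limma), and it did not pass with the hybridisation covariate (1.11, adjusted p = 0.171) or the poly-A covariate (1.41, adjusted p = 0.0969). In both groups replicate 1 was the array farthest from the other group. With arsenate this probe set read 3.58, 4.05 and 4.31, below every control array, a difference from control of -1.45 ± 0.34 (adjusted p = 0.00823, limma).

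**Figure D4:**
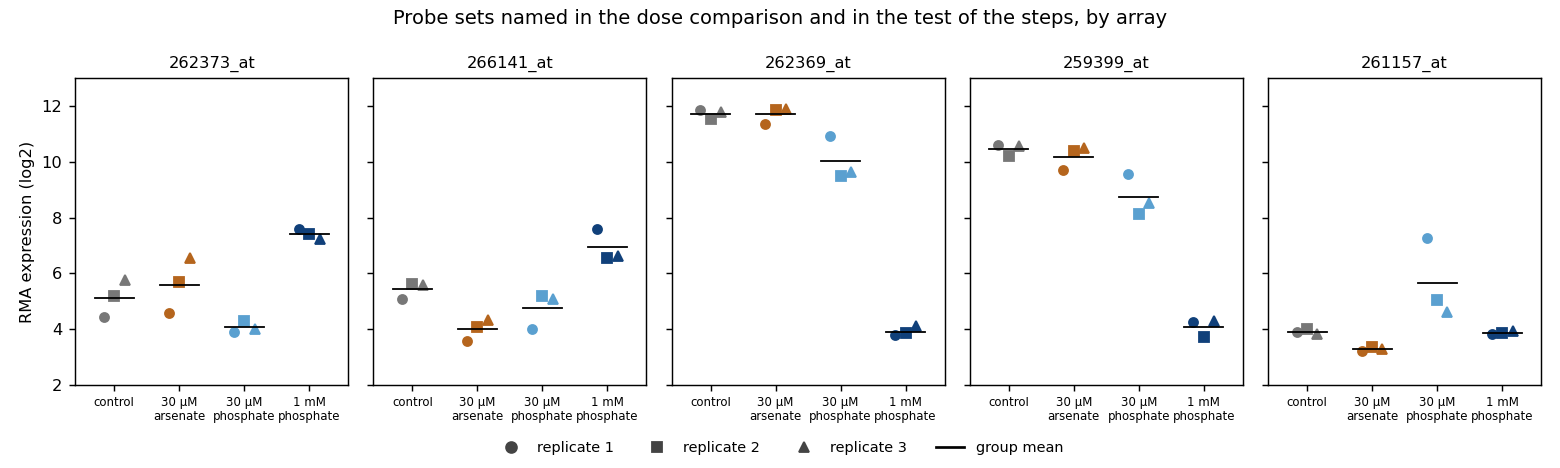
RMA expression (log2) of 5 probe sets on each of the 12 arrays at 8 h, with marker shape for the replicate number and a line for the group mean of 3 arrays. For 262369_at and 259399_at the 1 mM arrays lie between 3.71 and 4.28, and 30 µM replicate 1 lies above the other 30 µM arrays in these and in 261157_at.

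The 32 probe sets that fell by at least 2 log2 units had high levels in plants without phosphate. A fall of that size needs a 30 µM level well above the floor, so high levels are in part selected for. Their control means ran from 7.31 to 11.94 with a median of 9.67. Their 30 µM means had a median of 8.39 and their 1 mM means a median of 5.28, from 3.50 to 8.40. Of the 32, 3 ended below 3.72, the lowest lower quartile of the 1 mM arrays, so most of these falls ended above that level. More of them ended near the floor: the lower quartile over the 32 was 3.92, 3.86 and 4.07 on the 1 mM arrays. By array the median over the 32 was 9.16, 8.12 and 8.11 with 30 µM and 4.89, 5.24 and 5.34 with 1 mM, a gap by which the 32 were chosen. On the control arrays it was 9.80, 9.86 and 9.69, and with arsenate 9.68, 9.93 and 9.98. In 30 of the 32, 30 µM replicate 1 was the highest array of its group, as it was for 34.3% of all probe sets. Without that array the 32 had a median of -2.62, and all 32 were still called.

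The comparisons of each dose with the control share arrays with the dose comparison, so their values are set side by side only. The 32 probe sets had a median difference from control of -1.45 with 30 µM and of -4.42 with 1 mM phosphate. For the 226 probe sets that fell by at least 1 log2 unit these medians were -0.20 and -1.61, and for the 217 that rose by as much they were -0.32 and 0.88. Over all probe sets both were near 0 (0.00 and 0.03). As contrasts of the same fit, 3.87% of probe sets were called between 30 µM and control and 10.2% between 1 mM and control, with 155 (0.681%) and 432 (1.9%) falls of at least 1 log2 unit. The probe set 262369_at differed from control by -1.69 ± 0.31 with 30 µM (adjusted p = 0.0114, limma) and by -7.82 ± 0.31 with 1 mM (adjusted p = 1.05e-07, limma).

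**Figure D5:**
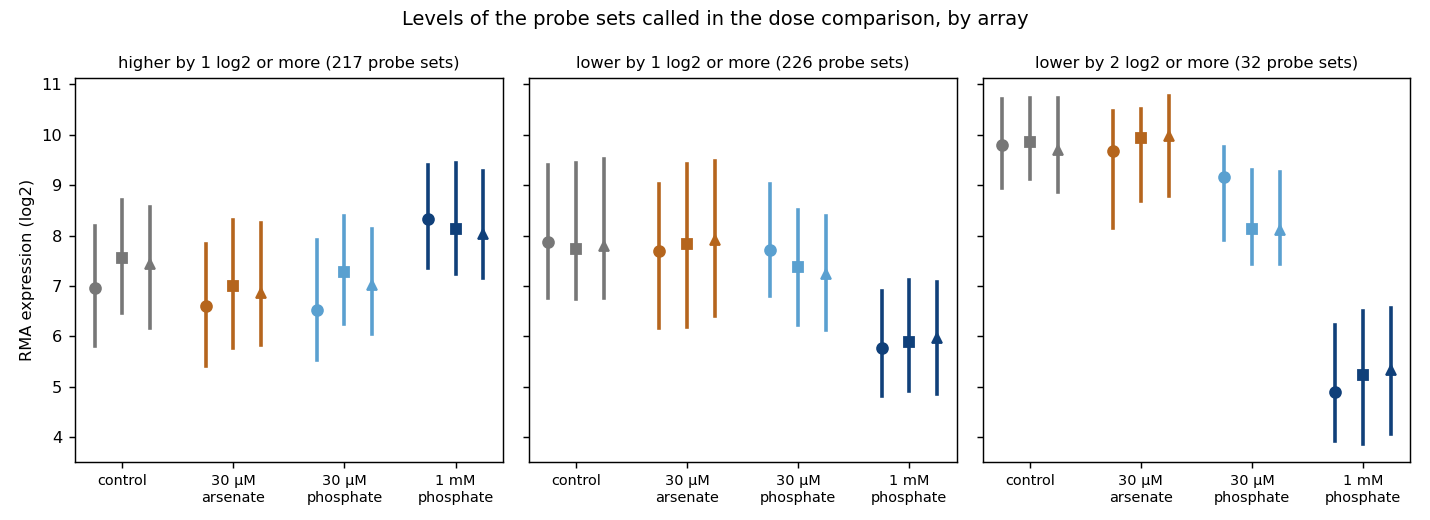
Median (marker) and interquartile range (bar) of RMA expression (log2) on each of the 12 arrays, over the probe sets called higher by at least 1 log2 unit (left), lower by at least 1 (middle) and lower by at least 2 (right) with 1 mM than with 30 µM phosphate; marker shape gives the replicate number. Over the 32 probe sets on the right, the 1 mM medians are 4.89 to 5.34 and the 30 µM medians 8.11 to 9.16.

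Whether the step from 30 µM to 1 mM differed from the step from no supplement to 30 µM was tested directly. The steps differed for 740 probe sets (3.25%), with the step to 1 mM above the other for 256 (1.13%) and below it for 484 (2.13%). Over the 256, median group levels were 7.65 in controls, 7.00 with 30 µM and 7.97 with 1 mM. Over the 484 they were 6.84, 7.54 and 6.77. The 30 µM mean was below both the control and the 1 mM mean for 246 of the 256 (96.1%). It was above both for 467 of the 484 (96.5%). The test favours such an order of levels but does not require it: 262369_at was called with means of 11.72, 10.03 and 3.90. The contrast weights the 30 µM arrays most. Its count of 740 was 273, 351 and 4 without 30 µM replicates 1, 2 and 3. It was 1367, 230 and 231 without control replicates 1, 2 and 3, and 257, 365 and 335 without 1 mM replicates 1, 2 and 3. With the hybridisation and poly-A covariates 31 and 3 were called. Other settings raised the count, to 1480 with the replicate number as a block, 2500 with array weights and 1466 without all arrays numbered 1.

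In this test 262369_at fell further on the step to 1 mM, by 4.44 ± 0.53 more (adjusted p = 0.00742, limma), and the call was lost with the hybridisation covariate (-3.98 ± 0.79, adjusted p = 0.0869) and the poly-A covariate (-3.77 ± 0.61, adjusted p = 0.0905), with a difference of similar size and a larger standard error. The steps of 262373_at differed by 4.43 ± 0.73 (adjusted p = 0.0142, limma) and those of 266141_at by 2.85 ± 0.59 (adjusted p = 0.0309, limma). Without 30 µM replicate 3 neither passed (adjusted p = 0.08 and 0.0883), at differences of 4.36 and 3.17. With the hybridisation and poly-A covariates the differences were smaller and did not pass, at 1.97 and 3.23 for 262373_at (adjusted p = 0.213 and 0.139) and 1.07 and 1.73 for 266141_at (adjusted p = 0.58 and 0.274). The call of 266141_at was also lost without control replicate 2 or 3, 30 µM replicate 1 or 1 mM replicate 1 (adjusted p from 0.055 to 0.102). The fourth probe set named here, 261157_at, differed by -3.51 ± 0.86 (adjusted p = 0.0499, limma). It read 7.28, 5.03 and 4.59 with 30 µM phosphate but 3.89, 3.98 and 3.82 in controls and 3.80, 3.84 and 3.94 with 1 mM, so all 30 µM arrays were above all arrays of both other groups. The difference of 30 µM from control was 1.74 ± 0.5 and did not pass (adjusted p = 0.083, limma). The difference between the doses, -1.77 ± 0.5, passed (adjusted p = 0.0446, limma). The size of the difference between the steps rested on 30 µM replicate 1: without that array it was -1.86 (adjusted p = 0.00768, limma). The call of 261157_at in the test of the steps was lost in 15 of 20 alternatives, with each of the other 8 compared arrays left out among them.

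Calls were more frequent among probe sets with a high level. Taking quartiles of the control mean, 0.983% of probe sets in the lowest quartile were called higher and 0.105% lower. In the highest quartile 8.39% were called higher and 11.5% lower. The median difference over all probe sets was 0.09 in the lowest quartile, 0.02, -0.12 and -0.08 in those above it, alongside the closer array quartiles of the 1 mM group given above. Falls of at least 1 log2 unit came mostly from the highest quartile, with 155 of 226, and rises of that size with 117 of 217. Probe sets whose suffix marks probes that also match other sequences (_x_at) were called in 5 of 126 cases (3.97%). Those that match several related transcripts (_s_at) were called in 92 of 935 (9.84%), and the others in 2149 of 21685 (9.91%).

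Most differences could be bounded on the RMA scale. Of the 20500 probe sets that were not called, 19146 (93.4%) had a 95% confidence interval of the difference within 1 log2 unit of 0, and 11599 (56.6%) within 0.5. For 1354 the interval reached 1 log2 unit or beyond, so a difference of that size lay within the interval. These intervals are not adjusted for the number of probe sets or for the control signal. The lowest quartile of the control mean, 2.72 to 3.68, held 5698 probe sets, of which 56 were called higher and 6 lower. RMA shrinks differences at low level, so a narrow interval there does not bound the change of the transcript.

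The arsenate comparison at 8 h shares no array with the dose comparison, but both take the spread of each probe set from the same fit. A probe set with a small spread is therefore called more readily in both, and dose calls were more frequent at high level. The part of spread and level in the shares below was not tested. Across 22746 probe sets, which are not independent of each other, the difference between the doses and that between arsenate and control had a Pearson's r of -0.066 and a Spearman's rho of -0.116. With arsenate 24% of probe sets were called against control, 10.8% higher and 13.2% lower. Of the 997 probe sets higher with 1 mM, 62 (6.22%) were higher and 239 (24.0%) lower with arsenate, which is 2.52% and 7.96% of those arsenate lists. Of the 1249 lower with 1 mM, 217 (17.4%) were higher and 327 (26.2%) lower with arsenate, or 8.80% and 10.9% of the arsenate lists. The 32 probe sets with the largest falls had a median difference between arsenate and control of -0.27, and 262369_at differed by -0.02 ± 0.31. On the arsenate arrays the hybridisation controls averaged 9.45 to 10.09, against 9.97 to 10.58 on the control arrays. The part of that signal in these shares was not tested.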

How the data were processed

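The deposited values are log2 expression per probe set, made by the authors with RMA, per the submitters' processing notes (no version named). RMA corrects background, equalises the distribution of probe intensities over arrays and then summarises each probe set. It therefore hides any change shared by most transcripts and shrinks differences at low level. The series' 9 NimbleGen arrays, at 1.5 h, were not used. The 64 control probe sets were left out, and values for them come from a fit that kept them.

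Groups came from sample titles. limma (version 3.58.1, R 4.3.3) was fitted to the 12 arrays in 4 groups (lmFit, contrasts.fit, eBayes, two-sided), with Benjamini-Hochberg adjustment over 22746 probe sets per contrast and no filter. Errors are moderated standard errors, and a call is an adjusted p under 0.05. The code was tested on simulated data. No table used here pairs ATH1 probe sets with genes, so the planned gene lists and organ markers were not applied. By rule, the 2 largest called rises and falls were named in the dose comparison, among probe sets whose groups do not overlap, and in the test of the steps. The comparison, lists and rules were chosen with earlier results of these data known. Alternatives covered normalization, filtering, the variance model, array weights, replicate number and single arrays. Spike-in covariates and the removal of all arrays numbered 1 were added after seeing the data.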

Additional observations from a re-analysis of the deposited data

How the results depend on the processing

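The 4 probe sets named in the dose comparison kept their direction under all alternatives run, and all calls held but those of 266141_at with the spike-in covariates. Leaving out each array in turn gave 680 to 1885 calls, 294 to 910 higher and 386 to 975 lower, with 98 to 303 rises and 148 to 259 falls of at least 1 log2 unit. With the hybridisation and poly-A covariates there were 238 and 130 calls, 42 and 27 higher and 196 and 103 lower. Of at least 1 log2 unit there were 22 and 12 rises and 165 and 90 falls with these covariates. Median centring gave 794 lower and array weights 1891. Removing all arrays numbered 1 gave 120 rises of at least 1 log2 unit. The cause was not tested. For the test of the steps, leaving out an array gave 4 to 1367 calls, 0 to 547 higher and 4 to 820 lower. The 0 of limma came without 30 µM replicate 3, where 1643 were higher at an unadjusted p under 0.05. Array weights gave 2500 (984 higher, 1516 lower), removing the arrays numbered 1 gave 1466 (568 and 898), the hybridisation covariate 31 (1 and 30) and the poly-A covariate 3 (0 and 3 in limma, 775 and 1390 unadjusted). Median centring gave 267 lower. Same-numbered arrays deviated together among controls, arsenate and 30 µM phosphate (r of 0.13 to 0.49) but not with 1 mM (-0.20 to 0.07), so the numbers do not pair the 2 phosphate doses. Whether the 1 mM arrays were handled apart from the others is not given by the labels, was not tested and cannot be told apart from dose. In the test of the steps they pair controls with 30 µM phosphate (r of 0.42, 0.39 and 0.13) but neither of these with 1 mM. With the replicate number as a block the dose comparison had 1313 rises and 1717 falls and the test of the steps 1480 (597 higher, 883 lower). Leaving out the arsenate arrays repeats the compared groups for the test of the steps and was run once.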
